A study of Homo sapiens with 6 samples.

Results

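The transcripts of 48 genes that serve ribosome production were followed during p53 activation. The genes were chosen by symbol, as factors of RNA polymerase I (Pol I) transcription, nucleolar scaffold proteins, and proteins of the small nucleolar ribonucleoproteins (snoRNPs) and of subunit assembly, and each symbol was matched to 1 of the 57905 rows of the count table. The choice was made with earlier results of these data known, so no test of the list as a whole was made. All 48 passed the low-count filter that left 16565 tested genes. RNA came from HCT116, a human colorectal carcinoma line with wild-type p53, so that every group stands for 1 cell line. Cells of the Nut 0h group received the vehicle DMSO, and cells of the Nut 1h and Nut 10h groups received 10 µM Nutlin-3a for 1 and 10 h. Nutlin-3a keeps the ubiquitin ligase HDM2 (gene MDM2) from binding p53. Each group held 2 libraries labelled as biological replicates, 6 in all, and the time that the control cells spent in vehicle is not given in the sources used here.

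Ribosomes are built in the nucleolus. Pol I copies the ribosomal DNA into a long precursor RNA, snoRNPs methylate and pseudouridylate it, and a relay of assembly factors, helicases and nucleases folds and cuts it into the RNAs of the small and the large subunit while ribosomal proteins bind. The pathway is tied to p53 because ribosomal proteins left without ribosomal RNA can bind and block MDM2, and because p53 can lower Pol I transcription. The libraries were read here for transcripts of the genes that run the pathway, and say nothing by themselves about the amount of ribosomal RNA made. Whether poly(A) RNA was selected or ribosomal RNA removed is not given in the sources used here.

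Between 26068076 and 35473485 counts were assigned to genes per library. MDM2, a direct target of p53, stood at 51.1 and 63.1 normalized CPM (counts scaled by the effective library size) in the controls, 263 and 257 after 1 h and 686 and 846 after 10 h. CDKN1A, which encodes the cell cycle inhibitor p21, stood at 322 and 281, at 298 and 325, and at 4408 and 4231. Both p53 targets were therefore far above the control libraries by Nut 10h, and at Nut 1h MDM2 was above them while the CDKN1A libraries overlapped with the controls. MYC, a transcription factor with many ribosome biogenesis targets, stood at 749 and 667, at 389 and 429, and at 977 and 853. The levels of MDM2, CDKN1A and MYC are given without the GC-content offset described below, and no offset value is given for them. Of the epithelial markers, EPCAM, KRT8, KRT18, CDH1 and CDX2 were expressed and VIL1 had at most 10 counts in a library. They too moved at Nut 1h, with log2 fold changes of 0.46, -0.71, -0.36, 0.51 and -1.29 in that order, all called (with the GC-content offset described below, only CDH1 at 0.38 and CDX2 at -0.52 were), and EPCAM was also lower at Nut 10h (-0.32, adjusted p = 0.0242, and -0.35 with the offset, called). The part of these changes in the results was not tested. Of 7 markers of blood, fibroblasts and endothelium, COL1A1 had 621 to 1484 counts per library and the other 6 had at most 25. COL1A1 was lower at Nut 1h (-0.78, and 0.14 with the offset, not called). Counts from the mitochondrial genome made up 8.44% and 8.15% at Nut 1h and 4.99% to 7.06% in the other libraries, and their part in the results was not tested.

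The 48 genes together took 0.886% and 0.879% of all counts in the control libraries, 1.18% and 1.24% after 1 h and 0.762% and 0.804% after 10 h. Their summed share was thus highest in the Nut 1h libraries and lowest in the Nut 10h libraries, with no overlap between the groups. NPM1 and NCL supply the largest parts of these counts, so the genes were also read one by one. In bulk RNA a lower level cannot be told apart from fewer cells that express the gene.

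At Nut 1h, 25 of the 48 genes were called higher and 13 lower than at Nut 0h, and 10 were not called (edgeR's quasi-likelihood test, adjusted p of at most 0.05 over all tested genes). Among all 16565 tested genes, 34.5% were called higher and 32.3% lower. The median log2 fold change was 0.24 over the 48 genes and 0.05 over all tested genes. The changes ran from a rise of 1.31 (GAR1) to a fall of 0.91 (NOP10) on the log2 scale. At Nut 10h most of the called genes were lower, with 1 gene called higher (URB1), 16 lower and 31 not called, against 14.1% higher and 14.9% lower in the background. The median log2 fold change was then -0.17, against 0 over all tested genes. The Nut 1h and Nut 10h contrasts share the Nut 0h libraries, so their values are given side by side and the step from Nut 1h to Nut 10h was tested on its own. Without the library Nut 1h replicate 1, 7 genes were called lower at Nut 1h. At Nut 10h, 5 were called lower without Nut 0h replicate 1, and 10 when either Nut 1h library was left out.

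**Figure D1:**
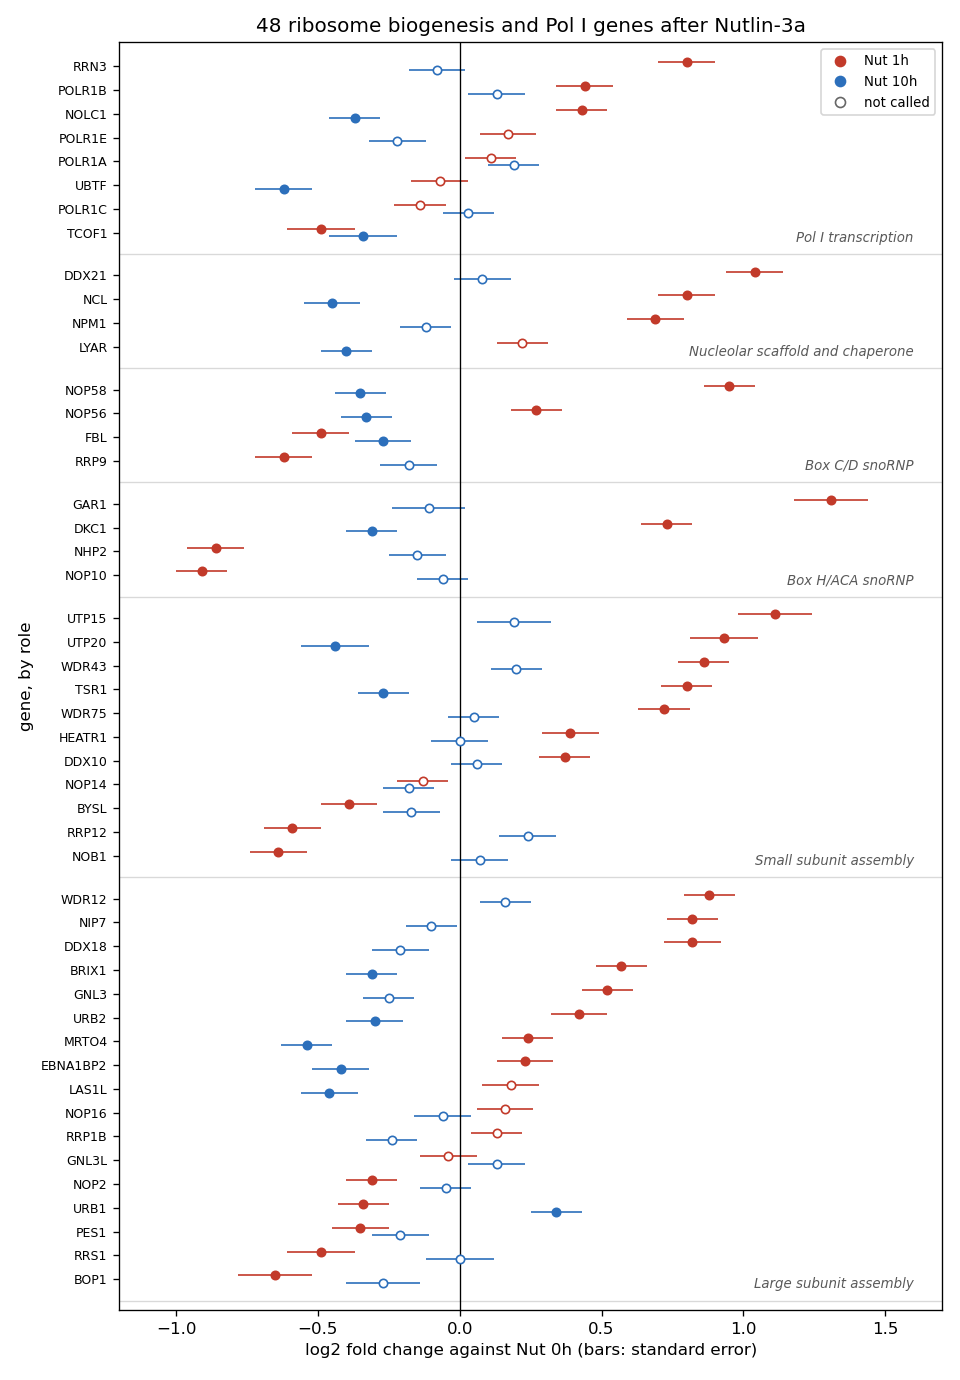
Log2 fold change (x axis, with standard error bars) of each of the 48 genes (y axis, grouped by role) at Nut 1h (red) and Nut 10h (blue) against Nut 0h, with filled points for called genes and open points for genes not called. The red points spread from -0.91 (NOP10) to 1.31 (GAR1), and the blue points lie between -0.62 (UBTF) and 0.34 (URB1).

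GC content has to be read beside every value at Nut 1h. Across the 48 genes, the log2 fold change at Nut 1h had a Pearson r of -0.78 and a Spearman rho of -0.79 with the GC content of the gene's longest transcript, and across the 16137 tested genes with a GC content the Pearson r was -0.69. Of the 19 genes with under 45% GC, 17 were called higher, as were 72.2% of all tested genes in that range. All 9 genes with over 55% GC were called lower (TCOF1, RRP9, NHP2, RRP12, BYSL, NOP2, BOP1, PES1 and RRS1), as were 75.1% of all tested genes in that range. At Nut 10h the same correlation was -0.15 over the 48 genes and -0.03 over the tested genes. These are descriptions across genes that share the same libraries, and genes are not independent replicates.

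The test was therefore repeated with a GC-content offset, in which each library's smooth trend of expression on GC content was removed for the 16137 of 16565 tested genes with a known GC content, all 48 among them. With it, 25 of the 48 genes were called higher and 8 lower at Nut 1h, against 20.3% and 25.3% of all tested genes, and the Pearson r with GC content was 0.17. The genes behind these counts changed in part. Of the 25 genes first called higher, 17 were again called higher, 6 were not called (POLR1B, NPM1, WDR75, GNL3, BRIX1, EBNA1BP2) and 2 were called lower (HEATR1, DDX10). Of the 13 first called lower, 3 were again called lower (NHP2, NOP10, NOB1), 6 were not called (TCOF1, FBL, RRP12, BYSL, RRS1, URB1) and 4 were called higher (RRP9, NOP2, BOP1, PES1). At Nut 10h, by contrast, all 16 falls and the rise of URB1 were called again, and the offset brought the counts to 24 lower and 2 higher, against 22.4% and 16.9% of all tested genes. With the replicate number added as a block beside the offset, 22 genes were called higher at Nut 1h, and WDR43, DDX18 and NOP2 were no longer called (adjusted p = 0.0514, 0.0651 and 0.0715). What sets GC-poor and GC-rich transcripts apart at Nut 1h was not tested.

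**Figure D2:**
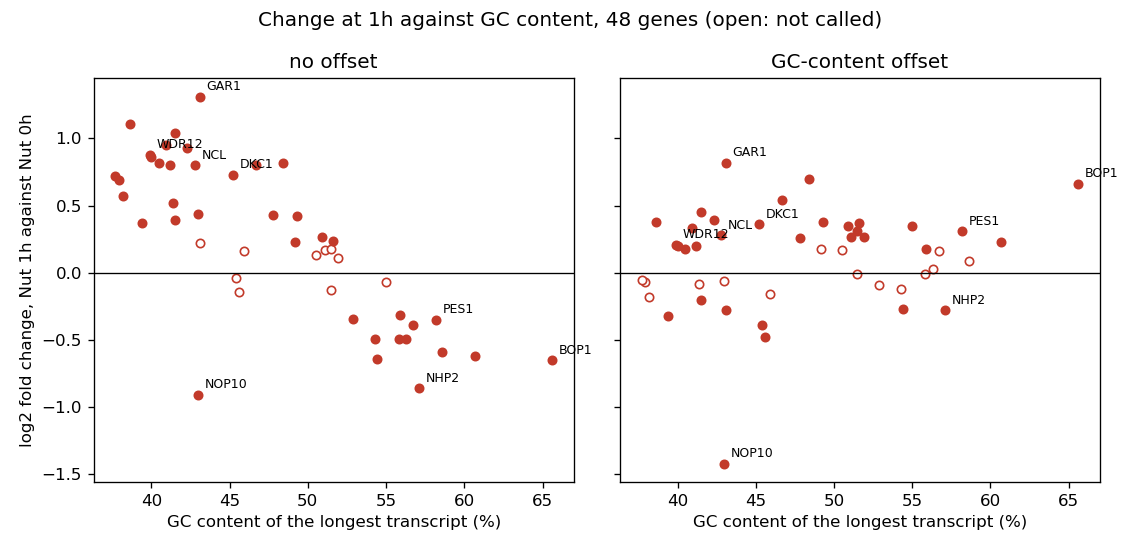
Log2 fold change at Nut 1h against Nut 0h (y axis) by the GC content of the gene's longest transcript in percent (x axis) for the 48 genes, without (left) and with (right) the GC-content offset, with filled points for called genes. On the left the points descend from GC-poor to GC-rich genes (Pearson r -0.78), with NOP10 below the others of its GC content, and on the right they show little slope (r 0.17).

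Of the 8 genes of Pol I transcription, 3 were called higher (RRN3, POLR1B, NOLC1) and 1 lower (TCOF1) at Nut 1h, and 3 were called lower at Nut 10h (UBTF, TCOF1, NOLC1). Of all tested genes, 34.5% were higher and 32.3% lower after 1 h, and 14.9% lower after 10 h. The offset gave 5 higher and 1 lower of the 8 after 1 h (20.3% and 25.3% of all tested genes), and 4 lower after 10 h (22.4%). UBTF encodes the upstream binding factor that coats active ribosomal DNA (chr17:42282401-42298994, GRCh37, minus strand). It stood at 246 and 210.1 normalized CPM in the controls, 212 and 222 after 1 h and 152 and 144 after 10 h. The Nut 1h libraries lay within the range of the controls, whereas both Nut 10h libraries were below all others. At Nut 10h its log2 fold change was -0.62 ± 0.10 (SE, adjusted p = 0.000313), the largest fall of the 48 genes at that time. With the offset the fall came to -0.64, and UBTF was then also called higher at Nut 1h (0.35).

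RRN3, the factor that brings Pol I to the promoter and a known target of growth signalling, stood at 77.2 and 87.6 normalized CPM in the controls, 140.5 and 147 after 1 h and 72.2 and 83.4 after 10 h. Its Nut 1h libraries were above all others, and those of Nut 0h and Nut 10h overlapped. Its rise of 0.80 ± 0.10 on the log2 scale was called (adjusted p = 1.08e-05), and came to 0.20 with the GC-content offset (adjusted p = 0.0311). The table also lists 3 RRN3 pseudogenes, which hold counts equal to 5.42% of those of RRN3, so reads shared with these copies leave its level less certain.

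TCOF1 encodes treacle, a nucleolar protein needed for Pol I transcription and mutated in Treacher Collins syndrome. It stood at 392 and 305 normalized CPM in the controls, 234 and 262 after 1 h and 293 and 259 after 10 h. Both treated groups were below the controls. The fall was called at Nut 1h (-0.49 ± 0.12, adjusted p = 0.00239) and, near the threshold, at Nut 10h (-0.34 ± 0.12, adjusted p = 0.0478). The 1 h value was -0.31 when control replicate 1 was left out and -0.41 when replicate 1 of Nut 1h was, neither called, and -0.01 with the offset. The 10 h value was -0.15 and no longer called without Nut 0h replicate 1, and its call was also lost without either Nut 1h library or Nut 10h replicate 2.

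Pol I itself was represented by 4 subunits. POLR1A, the largest and catalytic subunit, stood at 151 and 163 normalized CPM in the controls, 166 and 174 after 1 h and 172 and 186 after 10 h. It was called at neither time, but higher at Nut 1h with the offset (0.27, adjusted p = 0.00527). POLR1B, the second-largest subunit, stood at 71.3 and 82.9, at 104 and 106, and at 78.9 and 89.5. It was called higher at Nut 1h (0.44 ± 0.10, adjusted p = 0.00164), and its value was -0.06 and not called with the GC-content offset. POLR1C, which Pol I shares with RNA polymerase III, and POLR1E, specific to Pol I, were not called, with log2 fold changes of -0.14 and 0.17 after 1 h and of 0.03 and -0.22 after 10 h. With the offset POLR1C was called lower at Nut 1h (-0.48, adjusted p = 7.23e-05), while POLR1E was higher after 1 h (0.27) and lower after 10 h (-0.28). NOLC1, a snoRNP chaperone that also binds treacle, was called higher at Nut 1h (0.43) and lower at Nut 10h (-0.37). Both NOLC1 calls were made with the offset as well (0.26 and -0.45). Without the offset, the NOLC1 call at Nut 10h was lost when Nut 0h replicate 1 was left out (-0.32).

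**Figure D3:**
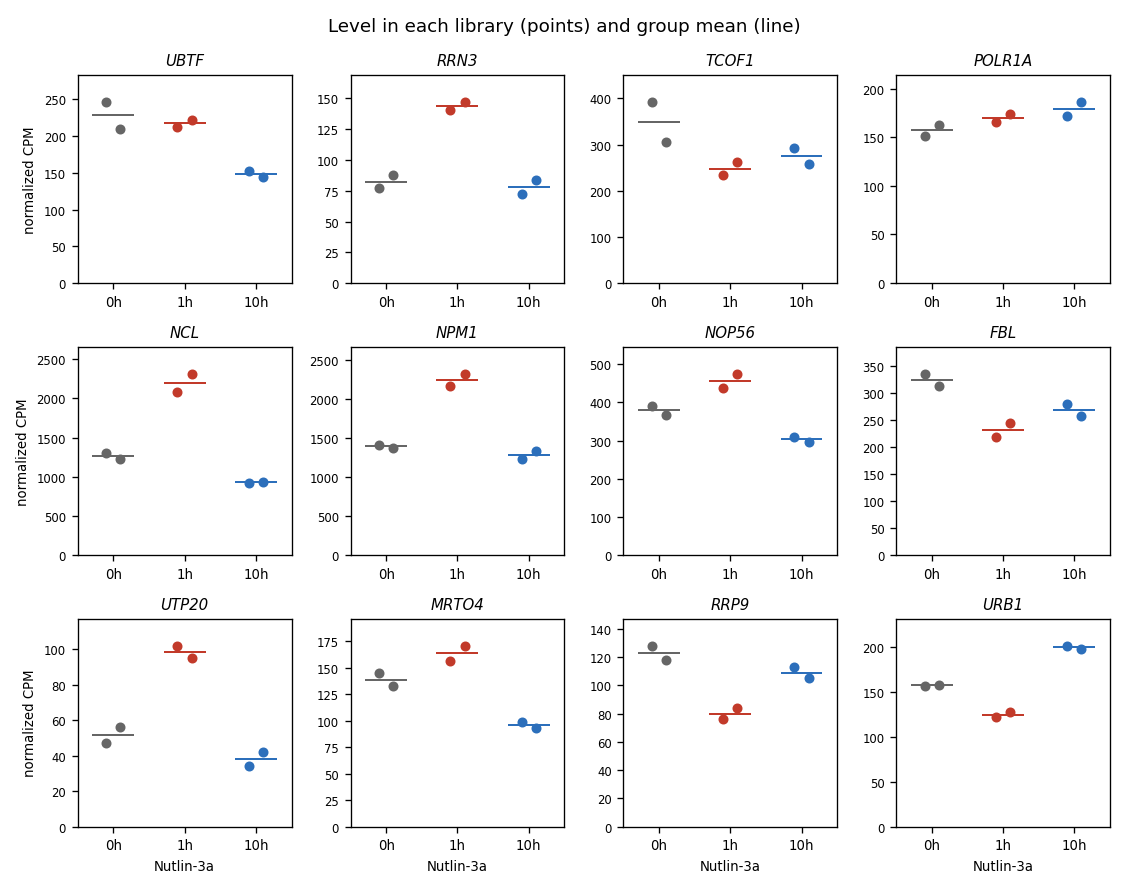
Normalized CPM (y axis, from 0) of 12 of the genes in each library at 0h, 1h and 10h of Nutlin-3a (x axis), with points for the 2 libraries of a group and a line for their mean. NCL is highest at Nut 1h (2078 and 2313) and lowest at Nut 10h (921 and 930.3), UBTF is lowest at Nut 10h, and URB1 is lowest at Nut 1h (122 and 128) and highest at Nut 10h (202 and 198).

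Among the 4 scaffold and chaperone genes of the nucleolus, 3 were called higher at Nut 1h (DDX21, NCL, NPM1) and 2 lower at Nut 10h (NCL, LYAR), against 34.5% and 14.9% of all tested genes. Nucleolin, the product of NCL (chr2:232318242-232348352, minus strand), binds the precursor RNA and helps its transcription and folding. The NCL libraries stood at 1298 and 1230.4 normalized CPM in the controls, 2078 and 2313 after 1 h and 921 and 930.3 after 10 h. The 3 groups did not overlap, with Nut 1h the highest and Nut 10h the lowest. On the log2 scale NCL rose by 0.80 ± 0.10 after 1 h (adjusted p = 6.6e-06) and was at -0.45 ± 0.10 after 10 h (adjusted p = 0.0029). The offset left 0.28 and -0.48, both called.

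NPM1, nucleophosmin, is the most abundant scaffold of the outer nucleolus and can hold ARF and MDM2 there. It stood at 1405 and 1373 normalized CPM in the controls, 2161 and 2316 after 1 h and 1231 and 1330.4 after 10 h. The Nut 1h libraries were the highest, by 0.69 ± 0.10 on the log2 scale (adjusted p = 2.17e-05), but NPM1 is among the genes with the lowest GC content (37.9%) and its value was -0.07 and not called with the offset. The value at Nut 10h was -0.12 ± 0.09 (adjusted p = 0.389). Of 45 NPM1 pseudogene rows, 21 held counts, equal to 2.17% of those of NPM1.

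DDX21, an RNA helicase that joins Pol I transcription to RNA processing, stood at 289 and 305 normalized CPM in the controls, 604 and 619 after 1 h and 283 and 345 after 10 h. The Nut 1h libraries were 2.06-fold above the controls ( log2 fold change 1.04 ± 0.10, adjusted p = 1.45e-06), and the Nut 10h libraries spanned them. DDX21 was also called with the GC-content offset (0.45). LYAR, a zinc finger protein that promotes precursor processing, was not called at Nut 1h (0.22 ± 0.09, adjusted p = 0.0516) and fell at Nut 10h (-0.40 ± 0.09, adjusted p = 0.00524). With the offset LYAR was lower at both times (-0.28 and -0.43). Without the offset, the LYAR call at Nut 10h was lost when Nut 0h replicate 1 was left out (-0.36).

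The box C/D snoRNP places methyl groups on the ribose of ribosomal RNA. Of its 4 genes, the paired core proteins NOP58 and NOP56 rose at Nut 1h, and the methyltransferase FBL and RRP9, the protein specific to the U3 snoRNA, fell. Of all tested genes, 34.5% were higher and 32.3% lower at that time. With the GC-content offset 3 of the 4 were called higher and 0 lower (20.3% and 25.3% of all tested genes). At Nut 10h 3 were called lower, or 4 with the offset, against 14.9% and 22.4% of all tested genes. NOP58 stood at 120.1 and 121 normalized CPM in the controls, 225 and 240 after 1 h and 92.2 and 97.2 after 10 h. Its 3 groups did not overlap, as for NCL, with changes of 0.95 ± 0.09 (adjusted p = 9.47e-07) and -0.35 ± 0.09 (adjusted p = 0.00984). NOP56 stood at 391 and 367, at 439 and 475, and at 309 and 297, the same order with smaller steps (0.27 ± 0.09, adjusted p = 0.0187, and -0.33 ± 0.09, adjusted p = 0.0166). The rise of NOP56 was not called by DESeq2 (adjusted p = 0.0519) or without the low-count filter (adjusted p = 0.052). Its call was also lost when replicate 2 of the controls or of Nut 1h was left out (log2 fold changes of 0.21 and 0.20, adjusted p = 0.168 and 0.185). It was called with the GC-content offset (0.35). The offset also kept the other NOP58 and NOP56 calls, with NOP58 at 0.33 and -0.38 and NOP56 at -0.39 at Nut 10h. Without the offset, the NOP58 call at Nut 10h was lost without Nut 0h replicate 1 (-0.35) or Nut 10h replicate 1 (-0.31). That of NOP56 at Nut 10h was lost without Nut 0h replicate 1 or Nut 10h replicate 2 (-0.28 each).

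FBL, fibrillarin, stood at 335 and 312 normalized CPM in the controls, 218 and 245 after 1 h and 279 and 257 after 10 h. It was lowest at Nut 1h and in between at Nut 10h, with no overlap. The changes were -0.49 ± 0.10 (adjusted p = 0.000533) and -0.27 ± 0.10 (adjusted p = 0.0478). With the offset the fall at Nut 1h was not called (-0.12, adjusted p = 0.199) and that at Nut 10h was (-0.29). The call at Nut 10h was lost when any library but Nut 10h replicate 1 was left out. RRP9 stood at 128 and 118, at 75.9 and 84.1, and at 113 and 105. It fell by 0.62 at Nut 1h (SE 0.10, adjusted p = 6.23e-05), whereas with the offset its value was 0.23 and called higher. RRP9 has 60.7% GC, against a median of 47.2% for the 48 genes.

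The box H/ACA snoRNP, which turns uridines of ribosomal RNA into pseudouridines and also binds telomerase RNA, is built from 4 proteins that sit in 1 particle. Their messenger RNAs moved in opposite directions at Nut 1h, GAR1 and DKC1 upwards and NHP2 and NOP10 downwards, and all 4 calls were made again with the GC-content offset. Of all tested genes, 34.5% were higher and 32.3% lower at that time, or 20.3% and 25.3% with the offset. The 250 bases of DNA before the RefSeq start of each gene are printed because the 4 genes of this particle part ways (build GRCh38.p14, in the direction of the gene). GAR1 lies at chr4:109815260-109815509 on the plus strand, with the first of its listed starts used here. DKC1 lies at chrX:154762614-154762863 on the plus strand, NHP2 at chr5:178153886-178154135 on the minus strand, and NOP10 at chr15:34343137-34343386 on the minus strand. Capitals mark the letters CACGTG (the E-box that MYC and other factors can bind), CCGGAAG or its reverse complement CTTCCGG (the core that ETS factors can bind), and the NRF1 palindrome (the 1 marked stretch in the DKC1 line).
GAR1: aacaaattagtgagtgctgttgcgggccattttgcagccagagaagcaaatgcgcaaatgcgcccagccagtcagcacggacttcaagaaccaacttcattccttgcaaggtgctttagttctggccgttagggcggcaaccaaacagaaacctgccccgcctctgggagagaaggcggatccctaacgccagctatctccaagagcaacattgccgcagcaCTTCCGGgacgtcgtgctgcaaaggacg
DKC1: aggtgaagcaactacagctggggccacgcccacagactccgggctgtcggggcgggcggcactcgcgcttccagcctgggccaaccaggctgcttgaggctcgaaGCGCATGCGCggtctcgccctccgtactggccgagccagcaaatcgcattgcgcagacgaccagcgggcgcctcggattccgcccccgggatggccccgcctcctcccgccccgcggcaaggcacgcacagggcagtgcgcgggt
NHP2: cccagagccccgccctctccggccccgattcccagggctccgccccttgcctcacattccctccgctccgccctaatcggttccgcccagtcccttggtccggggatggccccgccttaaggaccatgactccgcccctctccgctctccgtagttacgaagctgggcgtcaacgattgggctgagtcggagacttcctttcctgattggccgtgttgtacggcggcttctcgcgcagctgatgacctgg
NOP10: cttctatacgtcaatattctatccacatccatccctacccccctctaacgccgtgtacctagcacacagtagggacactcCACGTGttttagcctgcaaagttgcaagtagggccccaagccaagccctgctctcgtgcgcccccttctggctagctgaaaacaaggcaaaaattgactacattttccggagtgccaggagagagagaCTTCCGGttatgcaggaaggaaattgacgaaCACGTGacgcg
The window of GAR1 holds 1 ETS core, that of DKC1 holds 1 NRF1 palindrome, that of NOP10 holds 2 E-boxes and 1 ETS core, and that of NHP2 holds none of these letters. The 2 genes that rose share no motif with each other, and neither do the 2 that fell. Such matches describe the letters of a window and do not show that a factor binds there.

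GAR1 (chr4:110736666-110745896, GRCh37) stood at 22.3 and 23.4 normalized CPM in the controls, 54.5 and 59.1 after 1 h and 17.7 and 24.5 after 10 h. Its Nut 1h libraries were 2.49-fold above the controls, the largest rise of the 48 genes (log2 fold change 1.31 ± 0.13, adjusted p = 1.38e-06, and 0.82 with the offset), and its Nut 10h libraries spanned them. DKC1, dyskerin, the pseudouridine synthase of the particle (chrX:153991017-154005964), stood at 117 and 111, at 183 and 195, and at 91.4 and 92.6. It rose at Nut 1h (0.73 ± 0.09, adjusted p = 7.37e-06, and 0.36 with the offset). DKC1 was lower than the controls at Nut 10h (-0.31 ± 0.09, adjusted p = 0.0197), a call that was lost when any library but Nut 0h replicate 2 was left out.

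NOP10, the smallest protein of the particle (chr15:34631360-34635381), stood at 119.8 and 119 normalized CPM in the controls, 62 and 64.9 after 1 h and 122 and 108 after 10 h. Both Nut 1h libraries were at about 0.53 of the control level, and the Nut 10h libraries spanned it. The log2 fold change of -0.91 ± 0.09 (adjusted p = 1.76e-06) was the largest fall of the 48 genes at Nut 1h. NOP10 was also the 1 gene under 45% GC (43%) that was called lower, and its fall was -1.42 with the offset. NHP2 (chr5:177576464-177580895), the RNA-binding protein beside it, stood at 134 and 120.1, at 67.1 and 72.6, and at 119 and 109. It fell by 0.86 at Nut 1h (SE 0.10, adjusted p = 3.87e-06), or by 0.28 with the offset (adjusted p = 0.00271). A gene on the opposite strand, RMND5B, overlaps 28% of the exon bases of NHP2, and the strand setting of the counting is not given in the sources used here, so its reads may include some from RMND5B.

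**Figure D4:**
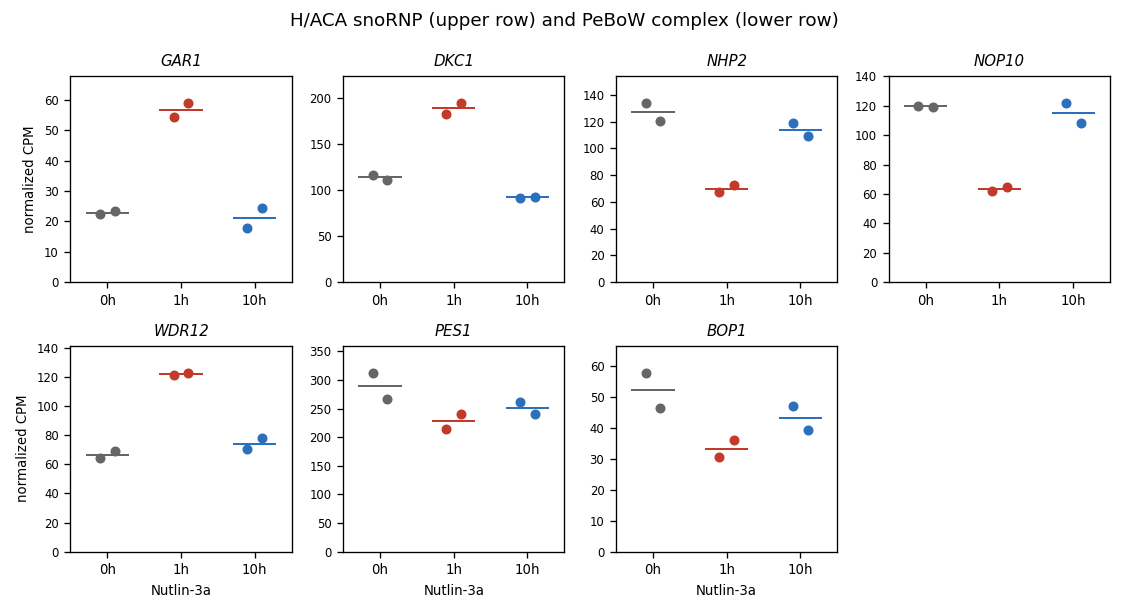
Normalized CPM (y axis, from 0) of the H/ACA proteins (upper row) and of the PeBoW complex (lower row) in each library at 0h, 1h and 10h of Nutlin-3a (x axis), with points for the 2 libraries of a group and a line for their mean. At Nut 1h GAR1, DKC1 and WDR12 are above the controls and NHP2, NOP10, PES1 and BOP1 below them, of which the BOP1 and PES1 falls turn into rises with the GC-content offset.

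Small subunit assembly had 11 genes, of which 7 were called higher (UTP15, UTP20, WDR43, TSR1, WDR75, HEATR1, DDX10) and 3 lower (NOB1, RRP12, BYSL) at Nut 1h. At Nut 10h, 2 were lower (UTP20, TSR1) and 9 were not called. The shares over all tested genes were 34.5% higher and 32.3% lower after 1 h, and 14.9% lower after 10 h. UTP15, WDR43, WDR75 and HEATR1 belong to the part of the processome that binds the precursor while it is still being transcribed. UTP15 stood at 26.2 and 27.3 normalized CPM in the controls, 56.4 and 59.3 after 1 h and 25.7 and 35.3 after 10 h. Only the rise at Nut 1h was called (1.11 ± 0.13, adjusted p = 4.64e-06, and 0.38 with the offset). WDR43 rose by 0.86 ± 0.09 at Nut 1h and WDR75 by 0.72 ± 0.09. HEATR1 was higher by 0.39 ± 0.10. With the offset WDR43 was called higher (0.20, adjusted p = 0.0313, and 0.0514 with the replicate block), WDR75 was not called (-0.05) and HEATR1 was called lower (-0.20, adjusted p = 0.0232). The rise of HEATR1 without the offset lost its call when Nut 0h replicate 1 or Nut 1h replicate 1 was left out (0.28 and 0.36), and LGALS8 on the opposite strand and another gene overlap 23.1% of its exon bases.

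UTP20, a large scaffold of the processome, stood at 47.3 and 56.1 normalized CPM in the controls, 102 and 95.2 after 1 h and 34.2 and 41.9 after 10 h. The groups did not overlap, with changes of 0.93 ± 0.12 (adjusted p = 8.46e-06) and -0.44 ± 0.12 (adjusted p = 0.0115). Both were called with the offset (0.39 and -0.47), and the call at Nut 10h was lost without Nut 0h replicate 2 or Nut 10h replicate 1. TSR1, a GTPase-like factor of late pre-40S particles, rose by 0.80 ± 0.09 at Nut 1h and was at -0.27 ± 0.09 at Nut 10h (adjusted p = 0.0391), a call lost with any 1 of the 6 libraries left out. SRR on the opposite strand overlaps 23.9% of its exon bases, and genes on the opposite strand likewise overlap 20.4% of those of NOB1, 20.7% of NOP14, 18.4% of NIP7, 18.6% of NOP16, 18.3% of POLR1C and 13.7% of EBNA1BP2. DDX10, a helicase, was higher at Nut 1h (0.37 ± 0.09), not called without replicate 2 of that time (0.28), and lower with the offset (-0.32).

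NOB1, the nuclease that makes the last cut of small subunit RNA, stood at 146 and 131 normalized CPM in the controls, 83.4 and 94.5 after 1 h and 152 and 139 after 10 h. Its Nut 1h libraries were below all others (-0.64 ± 0.10, adjusted p = 7.31e-05, and -0.27 with the offset, adjusted p = 0.00771). RRP12, an export factor, and BYSL, bystin, were lower at Nut 1h by 0.59 and 0.39 without the offset, and had values of 0.09 and 0.16 with it. The BYSL call was lost without replicate 1 of Nut 1h (-0.28). NOP14 was called at neither time (-0.13 and -0.18), and lower at Nut 10h with the offset (-0.23). Over the 11 genes, the offset gave 4 higher and 3 lower at Nut 1h, and 1 higher and 3 lower at Nut 10h, where all tested genes had 20.3% and 25.3%, then 16.9% and 22.4%.

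The 17 genes of large subunit assembly had 8 called higher and 5 lower at Nut 1h, and 1 higher and 5 lower at Nut 10h. All tested genes had 34.5% and 32.3%, then 14.1% and 14.9%. With the offset the list had 9 higher and 1 lower at Nut 1h, and 1 higher and 10 lower at Nut 10h, against 20.3% and 25.3%, then 16.9% and 22.4%. Of the 5 falls at Nut 1h none was called lower with it: NOP2, BOP1 and PES1 were called higher, RRS1 and URB1 were not called, and the 1 lower gene was GNL3L. The PeBoW complex, formed by PES1, BOP1 and WDR12, acts in the cutting of the large subunit precursor. WDR12 stood at 64.1 and 68.8 normalized CPM in the controls, 121 and 123 after 1 h and 70.2 and 77.9 after 10 h, with the Nut 1h libraries above the rest (0.88 ± 0.09, adjusted p = 2.41e-06). PES1 stood at 313 and 267, at 214 and 241, and at 261 and 241. BOP1 stood at 58 and 46.4, at 30.7 and 36, and at 47.3 and 39.5. Both PES1 and BOP1 were called lower at Nut 1h (-0.35 ± 0.10, adjusted p = 0.00936, and -0.65 ± 0.13, adjusted p = 0.000531). This split follows GC content, with WDR12 at 39.9%, PES1 at 58.2% and BOP1 at 65.6%. With the offset all 3 were called higher, WDR12 by 0.21, PES1 by 0.31 and BOP1 by 0.66. The Nut 1h and Nut 10h libraries of PES1 overlapped. The PES1 fall also lost its call without Nut 0h replicate 1 or without Nut 1h replicate 1.

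URB1, a nucleolar scaffold of early large subunit particles (chr21:33683329-33765321, minus strand), had the opposite course to its partner URB2. It stood at 157 and 158 normalized CPM in the controls, 122 and 128 after 1 h and 202 and 198 after 10 h. The 3 groups did not overlap, with Nut 10h the highest. The changes were -0.34 ± 0.09 (adjusted p = 0.00389) and 0.34 ± 0.09 (adjusted p = 0.00933). With the offset the fall at Nut 1h was not called (-0.09) and the rise at Nut 10h was (0.31), and leaving out Nut 1h replicate 1 ended the first call and leaving out either Nut 0h library the second. URB2 was higher at Nut 1h (0.42 ± 0.10) and lower at Nut 10h (-0.30 ± 0.10, adjusted p = 0.0331), the latter a call lost with any 1 library left out.

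MRTO4, a relative of the stalk protein of the large subunit that holds its place during assembly, stood at 145 and 133 normalized CPM in the controls, 157 and 171 after 1 h and 98.8 and 92.9 after 10 h. Its Nut 10h libraries were clearly the lowest (-0.54 ± 0.09, adjusted p = 0.000716, and -0.59 with the offset). The small rise at Nut 1h (0.24 ± 0.09, adjusted p = 0.0364) was lost with any 1 library left out and by DESeq2, as was that of EBNA1BP2 (0.23 ± 0.10, adjusted p = 0.0452). Both were also lost under RLE scaling, without the low-count filter and in the 2 groups alone. With the offset the rise of MRTO4 was called (0.37, adjusted p = 0.000508). EBNA1BP2 fell at Nut 10h (-0.42 ± 0.10), as did LAS1L, the nuclease that cuts the internal spacer (-0.46 ± 0.10), and BRIX1 (-0.31 ± 0.09). UBTF, NCL, LAS1L and MRTO4 were the 4 of the 17 genes called at Nut 10h whose call held with each library left out in turn.

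NIP7, an RNA-binding factor, rose by 0.82 ± 0.09 at Nut 1h and kept most of this with the offset (0.70, adjusted p = 2.9e-07). DDX18, a helicase, rose by 0.82 ± 0.10 (0.18 with the offset, and not called when the replicate block was added). The GTPase GNL3, nucleostemin, rose by 0.52 ± 0.09, and its value was -0.08 and not called with the offset. At Nut 10h GNL3 was at -0.25 ± 0.09 (adjusted p = 0.0527). It was called lower at that time with the offset (-0.28), by DESeq2 (-0.27), without the low-count filter (-0.30) and under RLE scaling (-0.26). NOP2, a methyltransferase of large subunit RNA, and RRS1, which loads the 5S particle, were lower at Nut 1h by 0.31 and 0.49, with offset values of 0.18 and 0.03. The NOP2 call was lost when replicate 1 of the controls or of Nut 1h was left out, and that of RRS1 when replicate 1 of Nut 1h was. GNL3L, NOP16 and RRP1B were not called at either time, with values between -0.24 and 0.16. With the offset GNL3L was called lower at Nut 1h (-0.39, adjusted p = 0.00117) and RRP1B lower at Nut 10h (-0.31, adjusted p = 0.00213). RRP1B was also called lower at Nut 10h by DESeq2 (-0.26, adjusted p = 0.0361) and without the low-count filter (-0.29, adjusted p = 0.0275).

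From Nut 1h to Nut 10h, 30 of the 48 genes were called lower and 9 higher, where 33.7% of the tested genes were lower and 34.2% higher. The median log2 difference was -0.57 over the 48 genes and -0.02 over all tested genes. With the GC-content offset, 28 were lower and 7 higher, against a background of 28.8% and 29%, and the median was -0.28. All 4 scaffold and chaperone genes fell over this step without the offset, with DDX21 at -0.96 ± 0.10 and NCL at -1.25 ± 0.10, but NPM1 (-0.07) and LYAR (-0.15) were not called with it. The largest falls were those of GAR1 (-1.43 ± 0.13), UTP20 (-1.37 ± 0.12) and NOP58 (-1.30 ± 0.09). NOP10 (0.86 ± 0.09), RRP12 (0.83 ± 0.10), NHP2 and NOB1 (0.71 ± 0.10 each) and URB1 (0.68 ± 0.09) rose. With the offset 21 of the 30 falls were called again, and of the 9 rises those of NOP10, NOB1 and URB1. RRP9, NOP2 and BOP1, called higher over this step without the offset, were called lower with it.

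A wider set of 115 other ribosome biogenesis genes, all of them tested, gave 62 higher and 35 lower at Nut 1h, with a median log2 fold change of 0.29, and 4 higher and 31 lower at Nut 10h, with a median of -0.13. The shares over all tested genes are those given above for each contrast, 34.5% higher and 32.3% lower for Nut 1h, then 14.1% and 14.9% for Nut 10h. Under the offset the counts were 33 and 31 at Nut 1h (median 0.02), where 20.3% and 25.3% of all tested genes were called, and 6 and 48 at Nut 10h (median -0.16), where 16.9% and 22.4% were. DDX52 and ZNHIT3, without a GC content, were not corrected. Other genes of Pol I transcription were 6 higher and 3 lower of 14 at Nut 1h, or 6 and 5 with the offset. TAF1B, a subunit of the promoter factor SL1, rose by 1.07 ± 0.11, and POLR2L and POLR2E, small subunits common to the nuclear polymerases, fell by 2.17 and 1.18. With the offset these values were 0.31, -1.42 and -0.42, all called. Other small subunit factors were 24 higher and 11 lower of 37, with a median of 0.57, or 13 and 5 with the offset, with a median of 0.12. WDR3 rose by 1.04 ± 0.10 (0.35 with the offset), and the value of NOC4L was -1.28 ± 0.12 without the offset and -0.11 with it. At Nut 10h, RCL1 (0.61 ± 0.10) was the largest rise of this list and UTP18 (-0.44 ± 0.09) the largest fall.

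Other large subunit factors were 23 higher and 14 lower of 43 at Nut 1h, with a median of 0.30, or 10 and 11 with the offset, with a median of 0. For these lists too, the shares over all tested genes were 34.5% and 32.3%, or 20.3% and 25.3% with the offset. RRP15 rose by 1.16 ± 0.10 (0.26 with the offset) and WDR18 fell by 1.57 (-0.30 with the offset). At Nut 10h DDX24 fell by 0.38 and NMD3, the export adaptor of the large subunit, had a value of 0.27 ± 0.09 (adjusted p = 0.0429). The NMD3 call was lost with 5 of the 6 libraries left out in turn, by DESeq2, under RLE scaling, in the 2 groups alone, with the replicate block and without the low-count filter (adjusted p = 0.0509 to 0.252 over these), and made with the offset (0.24). Among 9 other snoRNP genes, 3 were higher and 3 lower at Nut 1h, or 3 and 4 with the offset, with ZNHIT6 at 1.03 ± 0.12 (0.28 with the offset) and PIH1D1 at -0.63 ± 0.10 (-0.08 and not called with the offset). PIH1D1 was also lower at Nut 10h (-0.50 ± 0.09). Of 12 genes of the exosome that trims ribosomal RNA, 6 were higher and 4 lower at Nut 1h, with a median of 0.22, whereas 1 was higher and 6 lower with the offset, with a median of -0.28. EXOSC9 rose by 0.81 at Nut 1h (0.01 with the offset) and fell by 0.92 at Nut 10h (adjusted p = 5.86e-06, and -0.94 with the offset), the largest fall of the 115 genes at that time. EXOSC4 fell by 1.47 at Nut 1h (-0.89 with the offset).

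By the annotation, 9 of the 48 genes hold snoRNA or scaRNA genes within their bounds on the same strand (POLR1C, NCL, NOP56, NOP58, DKC1, WDR43, TSR1, GNL3 and URB1). That of POLR1C is a scaRNA, SCARNA15, and some, as in DKC1, overlap annotated exons. Of the 9, 7 were called higher and 1 lower at Nut 1h, with a median log2 fold change of 0.73, and 6 and 1 with the GC-content offset. Of the 39 others, 18 were called higher and 12 lower, with a median of 0.18, and 19 and 7 with the offset. Over all tested genes the shares were 34.5% and 32.3%, or 20.3% and 25.3% with the offset. The 9 genes had a median GC content of 45.2% and the others 49.2%, and no test was made between them.

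Promoter sequence was listed by RefSeq (GRCh38.p14) for 38 of the 48 genes. An ETS core (CCGGAAG on either strand) stood in the 250 bases before a start in 14 of the 38 (36.8%), among them POLR1B, RRN3, DDX21, FBL, GAR1 and NOP10, and in 18.1% of the 10212 tested genes with a listed promoter. The E-box CACGTG stood in 5 of the 38 (13.2%; LYAR, DDX21, NOP10, UTP20 and EBNA1BP2), against 11.1% of the tested genes. The NRF1 palindrome stood in 3 (7.89%; DKC1, DDX10 and NOB1), against 2.26%. These shares are descriptions without a test, and the 3 motifs do not share letters that let 1 match count for another.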

How the data were processed

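Trimmed paired-end reads were aligned to GRCh37.p13 with STAR 2.7.0f and counted per gene with featureCounts (Subread 2.0.0) by the authors, and the deposited values are these raw counts. The authors' table of comparisons (fold changes and p-values) was read for symbols only. Per library, 26068076 to 35473485 counts were assigned. Genes were filtered (filterByExpr), normalized (TMM) and tested with edgeR 4.0.16 (quasi-likelihood, 3 residual degrees of freedom) in R 4.3.3 over all 6 libraries, with Benjamini-Hochberg adjustment over 16565 genes. Genes with an adjusted p of at most 0.05 were called. The script was tested on simulated data. P-values measure the spread between libraries labelled as biological replicates of 1 line.

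GC content came from the longest GENCODE transcript (GRCh37), found for 97.4% of tested genes, and the GC-content offset used a loess span of 0.4. Alternatives were RLE and upper-quartile scaling, no low-count filter, DESeq2 1.42.0, the 2 groups alone, a replicate block, the offset, a threshold of 0.01 and each library left out. The 48 genes, the lists and the tests were chosen with earlier results of these data known. All 48 genes could be named; values per library were given for well-known genes and for the largest rise and fall of each role, and in the wider set the largest rise and fall per list. Promoters were those of RefSeq. Figures were drawn with matplotlib 3.10.9.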

Additional observations from a re-analysis of the deposited data

Results flagged for a closer look

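The levels of 39 of the 48 genes differed between Nut 10h and Nut 1h by the test of that difference itself (edgeR's quasi-likelihood test, adjusted p of at most 0.05), where 34.2% of all tested genes were higher and 33.7% lower. Some of them were called on opposite sides of Nut 0h at the 2 times. Over all tested genes, 34.5% were called higher at Nut 1h and 14.9% lower at Nut 10h, or 20.3% and 22.4% with the GC-content offset. The share of all tested genes with both calls is not given here, so the genes named below have no background to be set against. The contrasts share the Nut 0h libraries, so the value given here is the direct difference of Nut 10h and Nut 1h. The genes were picked by opposite calls against Nut 0h and by a call in this difference. Its sign and its call therefore follow from the choice, and it is given for its size only. On the log2 scale this was -0.80 for NOLC1, -1.25 for NCL, -0.60 for NOP56, -1.30 for NOP58, -1.04 for DKC1 and -1.37 for UTP20. It was -1.07 for TSR1, -0.88 for BRIX1, -0.65 for EBNA1BP2, -0.78 for MRTO4 and -0.72 for URB2, all higher at Nut 1h and lower at Nut 10h than the controls. URB1 alone had the reverse order, with a difference of 0.68. With the GC-content offset BRIX1 (-0.16) was no longer called in this comparison and the other 11 were. Against the controls at Nut 1h, the offset left BRIX1 (-0.18), EBNA1BP2 (0.18) and URB1 (-0.09) without a call. Thus 9 of the 11 genes that were higher and then lower kept both calls with it. The offset gave 16 of the 48 genes this order of calls, with POLR1E, UBTF, RRP9, BOP1, PES1, LAS1L and DDX18 joining the 9. A share over all tested genes is not given for this count either. Of the 12 genes first listed, NCL and MRTO4 alone kept their Nut 10h call with each library left out in turn.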

How the results depend on the processing

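With 2 libraries per group, small changes rest on single libraries. With each library left out in turn, 21 to 23 genes were called higher at Nut 1h and 7 to 13 lower (median log2 fold change 0.16 to 0.30). At Nut 10h, 0 to 2 were higher and 5 to 12 lower, and from Nut 1h to Nut 10h 6 to 11 were higher and 27 to 30 lower (median -0.62 to -0.48). Of the called genes, 27 of 38 at Nut 1h, 4 of 17 at Nut 10h and 32 of 39 between the times kept their call in all of these fits. At an adjusted p of at most 0.01, 8 genes were lower at Nut 10h. Upper-quartile scaling gave 2 higher at Nut 10h, RRP12 beside URB1. It ended the falls of TCOF1, FBL, TSR1 and URB2 at that time (adjusted p = 0.0651 to 0.0734), as did the fit of the 2 groups alone (0.0624 to 0.0842), and RLE scaling ended that of TCOF1 (0.056). At Nut 1h the rises of EBNA1BP2 and MRTO4 were ended by RLE scaling, DESeq2, no low-count filter and the 2 groups alone (0.051 to 0.171). RLE scaling, DESeq2, no low-count filter and the 2 groups alone reversed no called direction. The labels do not say whether replicate numbers pair the samples. Deviations of same-numbered libraries correlated at -0.121 (Nut 0h and Nut 1h), 0.193 (Nut 0h and Nut 10h) and -0.112 (Nut 1h and Nut 10h). These values do not decide whether such libraries were paired. With the replicate block, 24 genes were higher and 13 lower at Nut 1h, and 1 higher and 15 lower at Nut 10h. EBNA1BP2 at Nut 1h and FBL at Nut 10h lost their calls.

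The GC-content offset gave 8 lower at Nut 1h, 2 higher at Nut 10h and a median of -0.28 between the times, and the same 3 values with the replicate block. The block beside the offset ended the calls of WDR43, DDX18 and NOP2 at Nut 1h (22 higher). The offset reversed 16 of the 48 genes and 30 of the 115 genes of the wider set at Nut 1h, with or without the block. Here reversed means that the sign changed and that the gene was called with the offset, without it or both. Of the 48, 2 genes called higher without the offset were called lower with it (HEATR1, DDX10). Another 4 called lower without it were called higher with it (RRP9, NOP2, BOP1, PES1). The values of the 48, and of UTP18 alone from the wider set as a gene named above, were POLR1B -0.06, UBTF 0.35, NPM1 -0.07, LYAR -0.28, RRP9 0.23, WDR75 -0.05, HEATR1 -0.20, RRP12 0.09, DDX10 -0.32, BYSL 0.16, NOP2 0.18, BOP1 0.66, PES1 0.31, RRS1 0.03, GNL3 -0.08, BRIX1 -0.18 and UTP18 -0.06. Between Nut 1h and Nut 10h it reversed 11 of the 48 and 36 of the 115. Those of the 48 and the 4 named in the wider set were POLR1B (0.16), TCOF1 (-0.35), RRP9 (-0.43), WDR75 (0.07), HEATR1 (0.17), DDX10 (0.36, and 0.35 with the block), BYSL (-0.35), NOP2 (-0.24), BOP1 (-0.88), PES1 (-0.54), RRS1 (-0.05), POLR2E (-0.13, and -0.14 with the block), NOC4L (-0.30), WDR18 (-0.05, and -0.06 with the block) and PIH1D1 (-0.45). No called direction at Nut 10h against Nut 0h was reversed by any alternative run. The cause was not tested.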
